A study of Mus musculus with 7 samples.

Results

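The mRNAs of 9 amino acid transporter genes of the renal proximal tubule were followed in mouse kidney: Slc6a19, Slc6a18, Slc3a1, Slc7a9, Slc7a13, Slc3a2, Slc7a7, Slc7a8 and Slc1a1. They were taken by gene symbol from a table of 17537 genes, and all 9 were found and passed the filter on low values (1 CPM, reads per 1000000 reads, in 2 or more libraries), as did 13976 genes in all. PolyA-selected RNA of renal tissue was sequenced in 7 libraries: 3 of nondiabetic mice (C, replicates 2, 8 and 9), 2 of diabetic mice (DM-22, replicates 1 and 2) and 2 of diabetic mice that also received an inhibitor of the sodium-glucose cotransporter SGLT2 (DM+SGLT2i, replicates 1 and 2). All mice were wild-type C57BL/6, 8 to 10 weeks old at the start per the labels. Per the methods, hyperglycemia was induced by intraperitoneal streptozotocin (60 mg/kg on 5 days), which destroys the beta cells of the pancreas, C mice received sodium-citrate, and kidneys were collected after 22 weeks. The DM+SGLT2i mice drank dapagliflozin at 25 mg/kg for 6 weeks from week 16. The labels name male mice throughout, whereas the methods name both sexes, and 4 Y-linked mRNAs summed to between 97.9 and 156 CPM in every library. No source used here states whether a library came from 1 mouse or from several, so p-values measure the spread between these libraries, and no batch, day or litter is named.

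The proximal tubule recovers nearly all filtered amino acids through a 2-step route. At the luminal brush border, sodium-coupled carriers of the SLC6 and SLC1 families and the cystine transporter take amino acids up from the filtrate, and on the blood side heterodimers of a heavy chain (SLC3) and a light chain (SLC7) release them into the interstitium. Loss of these transporters in humans causes the aminoacidurias, among them Hartnup disorder, cystinuria and lysinuric protein intolerance. Whether diabetes alters this machinery, and whether lowering blood glucose with an SGLT2 inhibitor alters it again, is what the 3 groups allow to be compared.

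Library C replicate 2 stood apart from the other controls before any comparison. Its summed proximal S1 segment markers were 1081 CPM against 2476 to 2806 CPM in C replicates 8 and 9, its tubular injury markers 6300 CPM against 773 to 943 CPM, and its androgen-dependent proximal tubule mRNAs 3309 CPM against about 25650 to 25890 CPM. In C replicate 2 each sum was mostly 1 gene, at 705, 4898 and 2090 CPM. All 4 S1 and all 8 androgen-dependent genes were lower there than in C replicates 8 and 9, and all 8 injury genes were higher. DM-22 replicate 1 shared the low S1 sum, at 1070 CPM, and carried the highest thick ascending limb sum, at 13360 CPM against 3519 to 7260 CPM elsewhere. DM+SGLT2i replicate 1 held adipose markers at 1005 CPM, against 34.0 to 79.1 CPM in the other 6. Its urothelium markers summed to 136 CPM. Those of C replicate 2 summed to 58.1 CPM and those of DM-22 replicate 1 to 19.9 CPM, against 1.94 to 5.45 CPM elsewhere. The log2 fold changes of the members against controls are therefore given with all 3 controls and again without C replicate 2, whereas ratios between members were tested with all 3 controls only. The values are from renal tissue, where fewer cells of a type and less RNA per cell cannot be told apart.

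The promoters of the member with the widest and the member with the narrowest range over the libraries are shown, since they frame the spread described next. The windows are the 250 bases before the RefSeq start site in GRCm38.p6, for Slc6a19 at chr13:73692637-73692886 on the minus strand and for Slc3a1 at chr17:85028097-85028346 on the plus strand, written 5′ to 3′ with motif matches in capitals. The Slc6a19 window lies inside the GENCODE span of the gene (73679745 to 73704865), which was used for its exon length. Its RefSeq start and outermost GENCODE start thus differ.
Slc6a19: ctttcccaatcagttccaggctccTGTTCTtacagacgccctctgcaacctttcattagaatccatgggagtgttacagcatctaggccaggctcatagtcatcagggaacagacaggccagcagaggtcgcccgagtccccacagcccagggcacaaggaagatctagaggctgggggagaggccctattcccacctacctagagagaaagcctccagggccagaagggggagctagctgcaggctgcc
Slc3a1: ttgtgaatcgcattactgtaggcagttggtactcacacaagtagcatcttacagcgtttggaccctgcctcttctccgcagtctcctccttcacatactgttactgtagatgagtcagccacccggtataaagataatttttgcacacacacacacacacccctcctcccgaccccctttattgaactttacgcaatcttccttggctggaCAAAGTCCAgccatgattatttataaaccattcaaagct
Among 12 such windows of the 7 members that RefSeq's table held, 4 motifs were searched on both strands. The Slc6a19 window held the androgen receptor motif AGAACA, read on the reverse strand, 226 bases before the start, a motif found in 16.1% of all 32851 promoters. The Slc3a1 window held the HNF4 site CAAAGTCCA 39 bases before the start, which 0.384% of promoters hold. Slc7a7, which has 5 windows, held AGAACA in 2 overlapping ones and the HNF1 motif GTTAAT (6.43% of promoters) 86 bases before the start of another. The ATF4 element TGATGNAAT (0.816% of promoters) was in none of the 12. A match is a description of the letters only.

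Slc6a19 encodes B0AT1, the main luminal carrier of neutral amino acids and the gene of Hartnup disorder, and it varied most among the members. It was at 142 CPM in C replicate 2, 765 CPM in C replicate 8 and 653 CPM in C replicate 9. It was at 253 and 377 CPM in the DM-22 libraries and at 608 and 350 CPM in the DM+SGLT2i libraries. The lowest and the highest value, 5.40-fold apart, were thus both controls, and the groups overlapped. The 4 diabetic libraries all lay below C replicates 8 and 9 and above C replicate 2.

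Against all 3 controls, the log2 fold change of Slc6a19 in DM-22 was -0.42 (SE 0.73, limma adjusted p = 0.892, 95% interval -2.17 to 1.33). Without C replicate 2 it was -1.19 (SE 0.33, unadjusted p = 0.0111, limma adjusted p = 0.112), with both DM-22 libraries below both controls, as was so for 29.5% of all genes tested. In DM+SGLT2i the corresponding differences were 0.16 (SE 0.73) and -0.61 (SE 0.33, limma adjusted p = 0.376), so that the direction turned with the control set. The treated mice differed from DM-22 by 0.58 (SE 0.80, limma adjusted p = 0.905). None of these passed the threshold of adjusted p under 0.05. The summed S1 markers were lowest in the same 2 libraries as Slc6a19. Among them Slc5a2, which encodes SGLT2 itself, was at 169, 748 and 664 CPM in C, 274 and 930 CPM in DM-22, and 509 and 479 CPM in DM+SGLT2i. In DM-22 replicate 2, Slc6a19 was at 377 CPM, below both of C replicates 8 and 9. There Slc5a2 was at its highest of all 7 libraries. Slc5a12, another S1 marker, was at 322 CPM there, below its 405 and 394 CPM in C replicates 8 and 9. The remaining S1 markers lay between those controls. The part of segment content in the Slc6a19 values was not tested.

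Slc6a18 encodes B0AT3, a luminal carrier of glycine and other neutral amino acids. Its gene lies beside Slc6a19 on chromosome 13 (Slc6a18 at 73661752 to 73678023, Slc6a19 at 73679745 to 73704865, both on the minus strand of GRCm38), 1721 bases apart with 0 listed genes between them. Slc6a18 was at 720, 601 and 570 CPM in C replicates 2, 8 and 9, at 858 and 451 CPM in DM-22, and at 653 and 847 CPM in DM+SGLT2i. Its order over the libraries was unlike that of its neighbour: C replicate 2 and DM-22 replicate 1, lowest for Slc6a19, were among the 3 highest for Slc6a18. Pearson's r between the 2 genes was -0.44 over the 7 libraries, which is a description of libraries whose segment markers differ. Per kilobase of exon, Slc6a19 stood to Slc6a18 at 0.174, 1.12 and 1.01 in C, 0.260 and 0.738 in DM-22, and 0.822 and 0.365 in DM+SGLT2i. The 2 mRNAs were thus near parity in C replicates 8 and 9, and Slc6a18 exceeded its neighbour in the other 5 libraries. The ratio did not separate the 4 diabetic libraries from the 3 controls (two-sided exact permutation p = 0.829 over 35 splits, where the smallest possible p is 0.0286, adjusted p = 0.914 over 7 ratios). The log2 fold change of Slc6a18 was -0.01 in DM-22 (SE 0.31) and 0.25 in DM+SGLT2i (SE 0.31, limma adjusted p = 0.9997). The values without C replicate 2 were 0.09 and 0.35 (SE 0.33).

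Slc3a1 encodes rBAT, the heavy chain of the luminal cystine and dibasic amino acid transporter and a cystinuria gene. It was the steadiest of the 9, at 883, 925 and 820 CPM in C, 1007 and 758 CPM in DM-22, and 871 and 930 CPM in DM+SGLT2i, only 1.33-fold from lowest to highest. The groups overlapped, and C replicate 2 lay between the other controls. The log2 fold change in DM-22 was -0.002 (95% interval -0.51 to 0.50) and in DM+SGLT2i 0.04 (-0.46 to 0.55). They were 0.0047 and 0.05 without C replicate 2. Intervals of this width leave a change of about 0.5 on the log2 scale in either direction undecided. Of its exon length, 26.5% is shared with Prepl on the opposite strand, which was between 32.5 and 39.3 CPM.

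Slc7a9 encodes b0,+AT, the light chain that pairs with rBAT and the second cystinuria gene. It was at 76.4, 189 and 186 CPM in C, 102 and 204 CPM in DM-22, and 107 and 91.2 CPM in DM+SGLT2i. Both treated libraries lay below C replicates 8 and 9, as was so for 33.5% of all genes tested, and above C replicate 2, and the DM-22 pair spanned a 2.01-fold range. The heavy chain did not share this spread, so that Slc7a9 per kilobase stood at between 0.0734 and 0.229 of Slc3a1. Against all 3 controls the difference in DM+SGLT2i was -0.49 (SE 0.47, limma adjusted p = 0.9997), and without C replicate 2 it was -0.92 (SE 0.32, unadjusted p = 0.0286, limma adjusted p = 0.227). In DM-22 it was 0.05 and -0.38. The transcription factor gene Hnf4a, a regulator of proximal tubule identity, was at 532, 1242 and 1200 CPM in C, 728 and 1240 CPM in DM-22, and 816 and 707 CPM in DM+SGLT2i, the same split of libraries as for Slc7a9 (r = 0.99 over 7 libraries, a description). Of the coefficients of Slc7a9 with the marker genes compared, this was the largest in size, beside -0.95 for Lcn2 and -0.94 for Slc7a12. Slc3a1, whose window held the HNF4 site, had r = -0.51 with Hnf4a, and the Slc7a9 windows held 0 matches to the motifs searched. The part of Hnf4a in the Slc7a9 values was not tested.

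**Figure D1:**
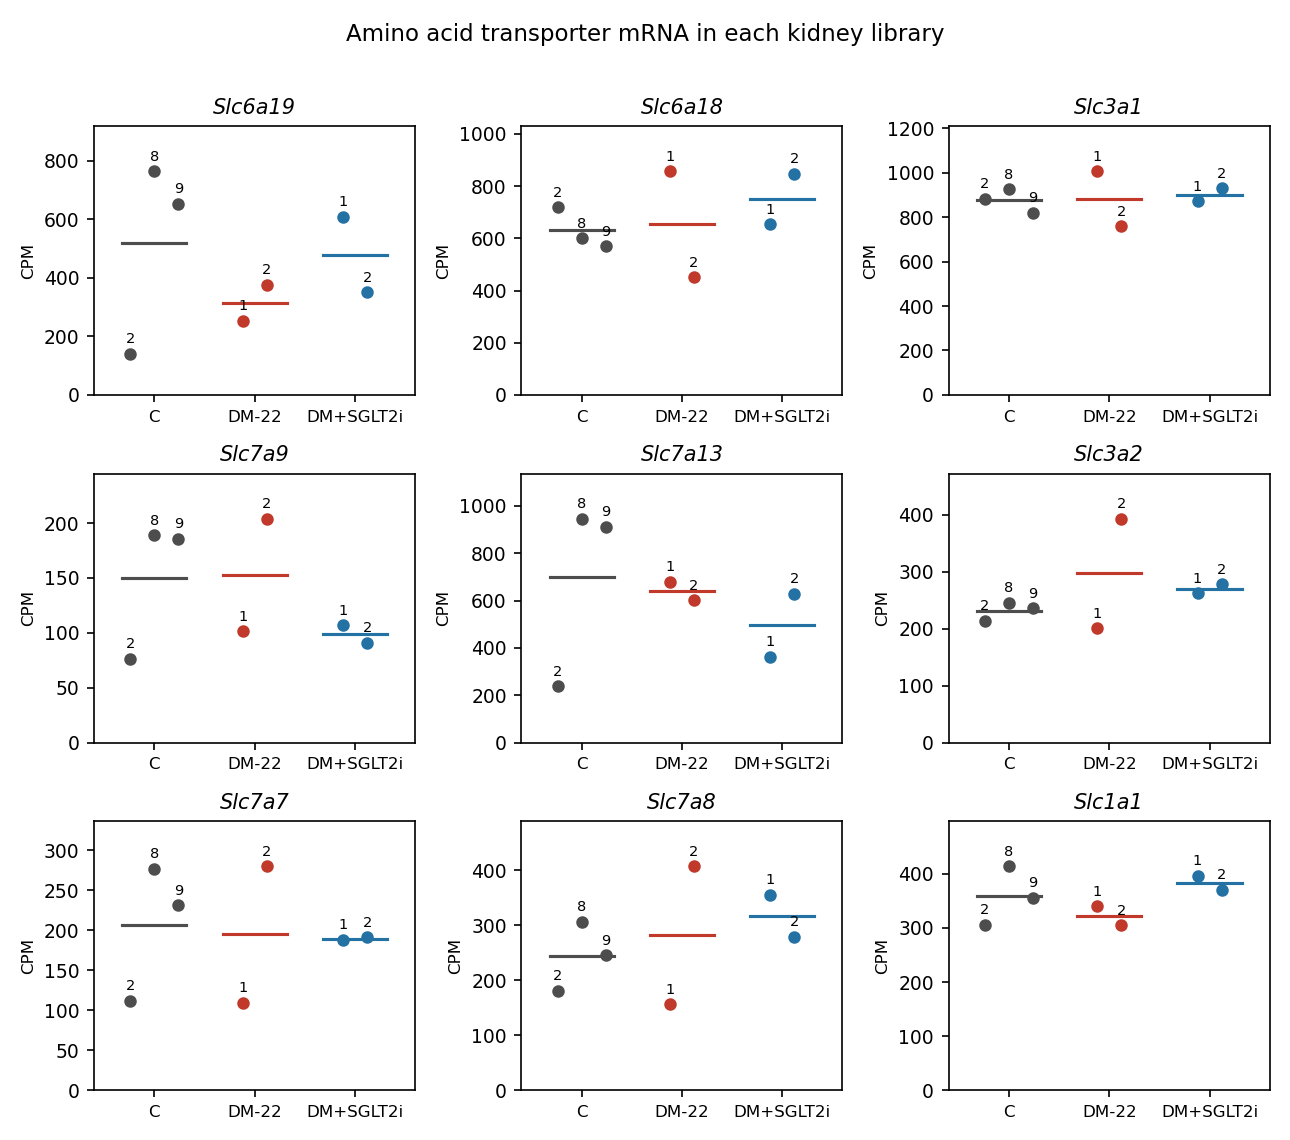
CPM (vertical axes, from 0) of the 9 transporter mRNAs in each of the 7 libraries, grouped on the horizontal axis as C, DM-22 and DM+SGLT2i, with each point labelled by its replicate number and horizontal lines marking group means. C replicate 2 lies far below replicates 8 and 9 for Slc6a19 (142 against 765 and 653 CPM) and Slc7a13 (238 against 946 and 912 CPM), whereas Slc3a1 stays between 758 and 1007 CPM in all 7 libraries.

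Slc7a13 encodes AGT1, an aspartate, glutamate and cystine carrier of the late proximal tubule that also pairs with rBAT and is higher in male than in female mouse kidney. It was at 238, 946 and 912 CPM in C, 681 and 603 CPM in DM-22, and 363 and 629 CPM in DM+SGLT2i. As for Slc6a19, all 4 diabetic libraries lay below C replicates 8 and 9 and above C replicate 2. A place below C replicates 8 and 9 in all 4 was found for 20.8% of all genes tested. The range of Slc7a13 over the libraries was 3.97-fold. With all 3 controls its log2 fold change was 0.12 in DM-22 (SE 0.62) and -0.31 in DM+SGLT2i (SE 0.62). With C replicates 8 and 9 alone it was -0.54 in DM-22 (SE 0.29, limma adjusted p = 0.291) and -0.96 in DM+SGLT2i (SE 0.29, unadjusted p = 0.0158, limma adjusted p = 0.185). Summed markers of the S3 segment, the late proximal tubule, lay the same way. They were at 4379, 9803 and 9378 CPM in C and at 5622 to 6740 CPM in the diabetic libraries. Slc27a2 alone was most of each sum, at 2883, 5202 and 5038 CPM in C. Without C replicate 2, 5 of 6 S3 markers had negative log2 fold changes in all diabetic libraries against C, beside 49.9% of all genes. The other, Slc5a1, was at 82.7 and 70.2 CPM in C replicates 8 and 9 and 77.3 to 148 CPM in the diabetic libraries. Of the 5, Cyp7b1 ran from 20.8 to 354 CPM in the diabetic libraries, against 166 and 158.5 CPM in C replicates 8 and 9. The part of S3 content in the Slc7a13 values was not tested.

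Androgen-dependent mRNAs divided the controls as Slc7a13 did, but not the DM-22 libraries. All 8 genes of the androgen-dependent list were lower in C replicate 2 than in C replicates 8 and 9, as were 14 of 16 general proximal tubule markers. In DM-22, 7 of 8 were lower in replicate 1 than in replicate 2 (summed 14790 against 29060 CPM). So were 14 of 16 proximal tubule markers, whereas Slc7a13 was higher in replicate 1. These counts are thus not particular to the androgen-dependent list. Kap, an abundant androgen-regulated proximal tubule mRNA, was at 2090, 17570 and 16870 CPM in C, 12470 and 19040 CPM in DM-22, and 5808 and 10640 CPM in DM+SGLT2i (r = 0.93 with Slc7a13 over 7 libraries, a description). Against all 3 controls, 6 of the 8 had positive and 2 negative log2 fold changes in DM-22 (median 0.13 beside 0.004 over all genes tested), and all 8 had negative ones in DM+SGLT2i (median -0.33 beside -0.01), 0 of them with an unadjusted p under 0.05 in either group. Without C replicate 2 all 8 were negative in both groups, beside 49.4% and 52.7% of all genes, so that the direction in DM-22 turned with the control set. Of these, 2 of 8 in DM-22 and 3 of 8 in DM+SGLT2i had an unadjusted p under 0.05, beside 14.8% and 9.14% of all genes in that direction, and the smallest limma adjusted p was 0.0724. Slc7a12, a relative of Slc7a13 that is higher in female mouse kidney, ran the other way, at 105, 12.97 and 6.71 CPM in C, 62.9 and 2.10 CPM in DM-22, and 50.1 and 48.5 CPM in DM+SGLT2i, a wide range in which the groups overlapped. The part of androgen-dependent expression in the Slc7a13 values was not tested.

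Per kilobase of exon, Slc7a13 stood to their common heavy chain Slc3a1 at 0.287, 1.09 and 1.180 in C, 0.717 and 0.843 in DM-22, and 0.442 and 0.717 in DM+SGLT2i. In C replicates 8 and 9 the Slc7a13 mRNA thus exceeded that of Slc3a1, and in the other 5 libraries it did not. The summed light chains Slc7a9 and Slc7a13 ran from 0.36 to 1.37 of Slc3a1, and the diabetic libraries did not separate from the controls (exact permutation p = 0.771, adjusted p = 0.914 over 7 ratios).

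**Figure D2:**
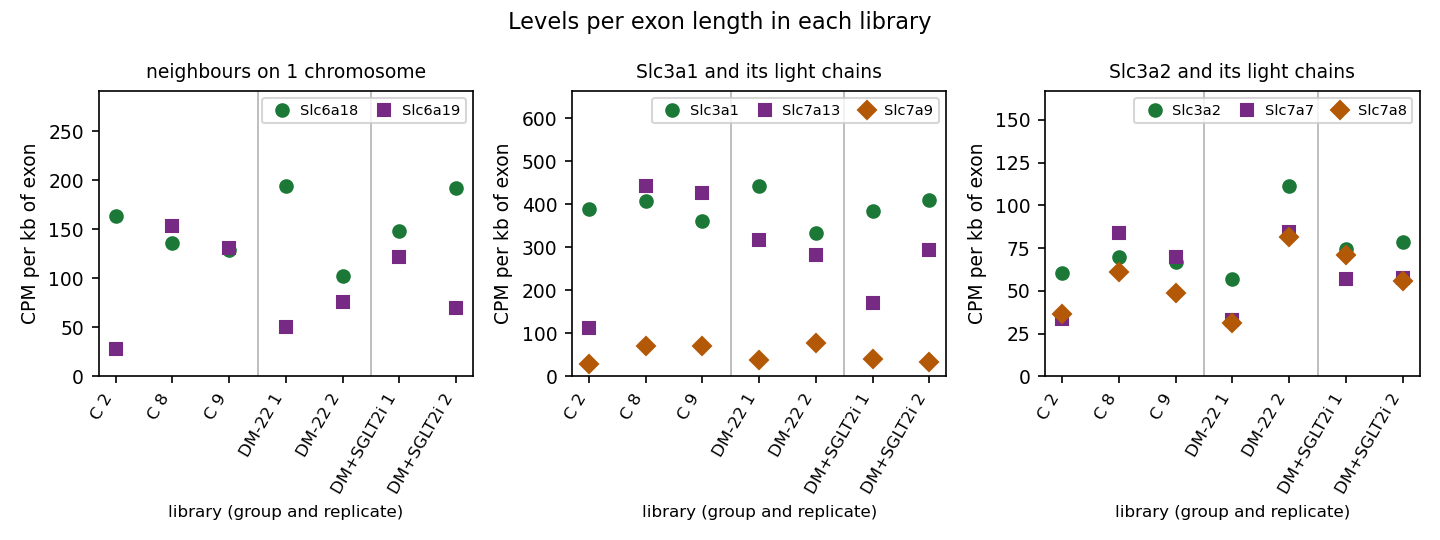
CPM per kilobase of exon (vertical axes, from 0) in each library (horizontal axes, group and replicate number, groups parted by lines) for the neighbours Slc6a18 and Slc6a19, for Slc3a1 with its light chains Slc7a13 and Slc7a9, and for Slc3a2 with Slc7a7 and Slc7a8. Slc3a1 stays between 334 and 443 CPM per kilobase while Slc7a13 runs from 111 to 442, and Slc7a7 and Slc7a8 take their lowest values in C replicate 2 and DM-22 replicate 1.

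On the blood side, Slc3a2 encodes 4F2hc (CD98), the heavy chain of the basolateral exchangers. It was at 214, 246 and 236 CPM in C, 201 and 394 CPM in DM-22, and 262 and 278 CPM in DM+SGLT2i. The DM-22 libraries held both the lowest and the highest value, and both treated libraries lay above all 3 controls, by 0.22 on the log2 scale (SE 0.28, limma adjusted p = 0.9997) and by 0.16 without C replicate 2. In DM-22 the difference was 0.28 and, without C replicate 2, 0.22. Over all genes tested, 5.67% lay wholly above the controls in this comparison, and Slc3a2 was 1 of 9 members to do so.

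Slc7a7 encodes y+LAT1, the light chain that exports dibasic amino acids and the gene of lysinuric protein intolerance. It was at 112, 277 and 231 CPM in C, 109 and 280 CPM in DM-22, and 188 and 191 CPM in DM+SGLT2i. DM-22 replicates 1 and 2 thus held the lowest and the highest of all 7 values, and the treated pair lay midway between them. The log2 fold change was -0.14 in DM-22 (SE 0.50) and -0.02 in DM+SGLT2i (SE 0.50) with all 3 controls, and -0.53 and -0.42 without C replicate 2. Exons of Oxa1l on the opposite strand overlap 7% of its length, at 72.3 to 85.0 CPM.

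Slc7a8 encodes LAT2, the exchanger of neutral amino acids on the same membrane. It was at 181, 306 and 245 CPM in C, 156 and 407 CPM in DM-22, and 356 and 279 CPM in DM+SGLT2i. As for Slc7a7, the DM-22 pair spanned the whole range, 2.61-fold, and the groups overlapped. Its difference in DM+SGLT2i was 0.40 (95% interval -0.62 to 1.42, limma adjusted p = 0.9997) and, without C replicate 2, 0.20. In DM-22 it was 0.08 with all 3 controls and -0.12 without C replicate 2, so that the direction turned. Both light chains followed the low libraries C replicate 2 and DM-22 replicate 1, in which Slc34a1, the phosphate carrier of the brush border, was at 2841 and 2937 CPM against 5233 to 9452 CPM elsewhere. The summed Slc7a7 and Slc7a8 per kilobase stood at 1.15 of Slc3a2 in C replicate 2 and 1.12 in DM-22 replicate 1, against 1.44 to 2.08 in the other 5 libraries. This ratio did not part the diabetic from the control libraries (exact permutation p = 0.457, adjusted p = 0.914 over 7 ratios).

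Slc1a1 encodes EAAC1 (EAAT3), the luminal carrier of glutamate and aspartate and the gene of dicarboxylic aminoaciduria. It was at 306, 414 and 356 CPM in C, 340 and 305 CPM in DM-22, and 397 and 370 CPM in DM+SGLT2i, a range of 1.36-fold that was the second narrowest after Slc3a1. Both treated libraries lay above both DM-22 libraries, which 21.4% of all genes tested also did, and the log2 difference was 0.25 (SE 0.20, limma adjusted p = 0.881). Against C it was -0.14 in DM-22 and 0.11 in DM+SGLT2i, both within 1 SE of 0. Against C replicates 8 and 9 alone it was -0.25 in DM-22 (SE 0.16, limma adjusted p = 0.354) and -0.0016 in DM+SGLT2i, with both DM-22 libraries below both of these controls, as for 29.5% of all genes tested. Exons of 4430402I18Rik on the opposite strand overlap 31.9% of its length, with that gene at 4.99 to 8.91 CPM.

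Ordered by CPM per kilobase, averaged over the 7 libraries, Slc3a1 came first at 390, followed by Slc7a13 at 292, Slc6a18 at 152, Slc6a19 at 89.9, Slc3a2 at 74.1, Slc7a7 at 59.9, Slc7a8 at 55.1, Slc7a9 at 51.0 and Slc1a1 at 43.1. The ranges of all 8 pairs of neighbours in this order overlapped. Slc6a19 changed place the most, from rank 3 in C replicates 8 and 9 to rank 9 in C replicate 2.

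Compared across all members with all 3 controls, 0 of 9 passed an adjusted p under 0.05 in any of the 4 limma contrasts (DM-22 against C, DM+SGLT2i against C, DM+SGLT2i against DM-22, and the 4 diabetic libraries against C), and so did 0 of 13976 genes, a background of 0%. At an unadjusted p under 0.05, 0 of 9 members passed in each contrast, beside 4.47%, 1.08%, 3.91% and 2.04% of all genes. limma voom on the recovered reads likewise gave 0 of 9 members at either threshold in each contrast. The members' log2 fold changes lay between -0.42 and 0.28 in DM-22 against C (median -0.002, beside 0.004 over all genes tested), between -0.49 and 0.40 in DM+SGLT2i against C (median 0.11 beside -0.01), and between -0.54 and 0.58 in DM+SGLT2i against DM-22 (median 0.12 beside 0.005). The DM-22 and DM+SGLT2i comparisons share their controls.

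Without C replicate 2, 1 of 9 members had an unadjusted p under 0.05 in DM-22 (Slc6a19, lower), beside 14.8% of all genes in that direction, and 2 of 9 in DM+SGLT2i (Slc7a9 and Slc7a13, lower), beside 9.14%. In the higher direction 0 of 9 did so in either group, beside 10.4% and 8.73%, and 0 of 9 passed in DM+SGLT2i against DM-22, beside 10.8% in both directions. In the 4 diabetic libraries against C, 2 of 9 did so (Slc6a19 by -0.90, limma adjusted p = 0.136, and Slc7a13 by -0.75, limma adjusted p = 0.148), beside 14.5%. These 2 were also the members whose 4 diabetic values all lay below both remaining controls, as was so for 20.8% of all genes. At an adjusted p under 0.05, 0 of 9 members passed in any contrast, beside 0.0143%, 0.122%, 0% and 0.2% of all genes in the order above. With backgrounds of this size, 1 or 2 of 9 is not read as a result about the members.

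**Figure D3:**
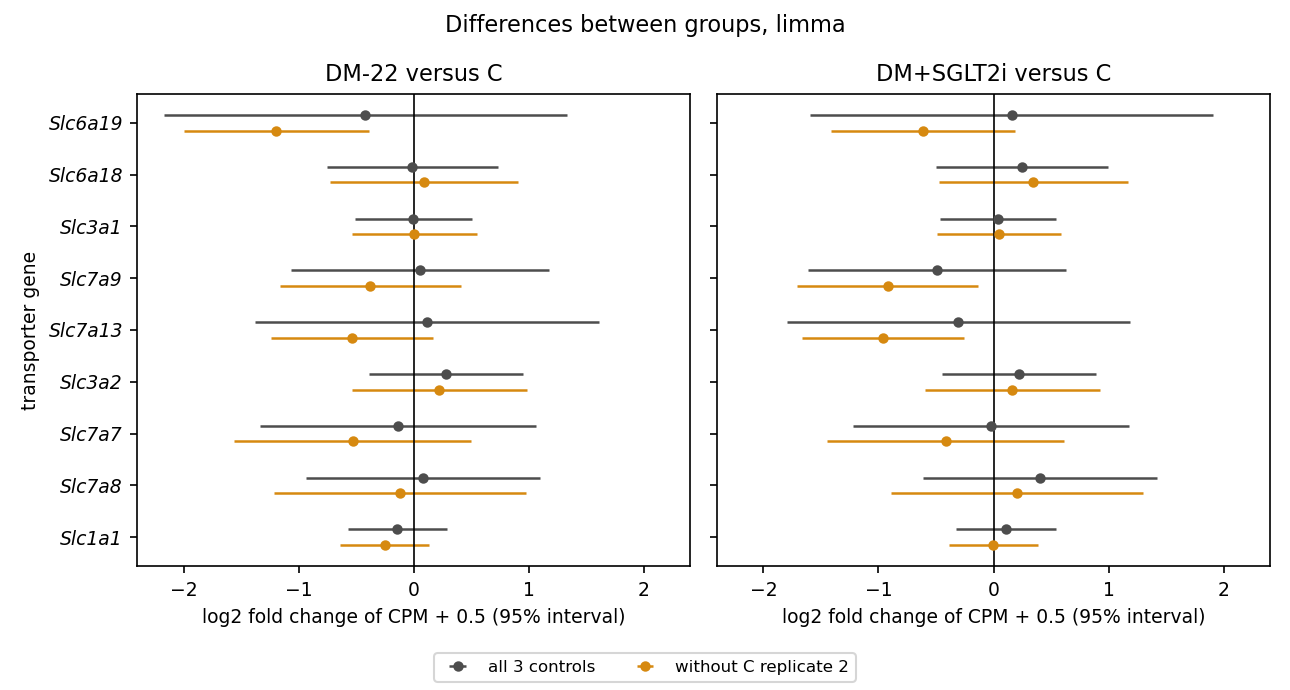
log2 fold changes of CPM + 0.5 (horizontal axes) with 95% limma intervals for the 9 transporters (vertical axis) in DM-22 versus C and DM+SGLT2i versus C, with all 3 controls and without C replicate 2. All intervals with 3 controls cross 0, and without C replicate 2 those of Slc6a19 in DM-22 (-1.19) and of Slc7a9 (-0.92) and Slc7a13 (-0.96) in DM+SGLT2i lie below 0.

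C replicate 2 was below the other 6 libraries for 3 of 9 members (Slc6a19, Slc7a9 and Slc7a13), beside 19% of all genes tested, and above them for 0 of 9, beside 16.4%. Over the 36 pairs of members, 24 had a positive and 12 a negative r over the 7 libraries, and all negative ones but that of Slc3a2 with Slc1a1 involved Slc6a18 or Slc3a1. Slc6a18 and Slc3a1 ran together (r = 0.89), as did Slc7a7 and Slc7a8 (r = 0.85) and Slc7a8 and Slc3a2 (r = 0.85), whereas Slc6a18 ran against Slc7a9 (r = -0.83). Slc6a18 also followed the thick ascending limb marker Slc12a1 (r = 0.94), which was at 5580 CPM in DM-22 replicate 1 and 602 CPM in DM-22 replicate 2. These coefficients describe 7 libraries whose segment markers differ and carry no test.

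**Figure D4:**
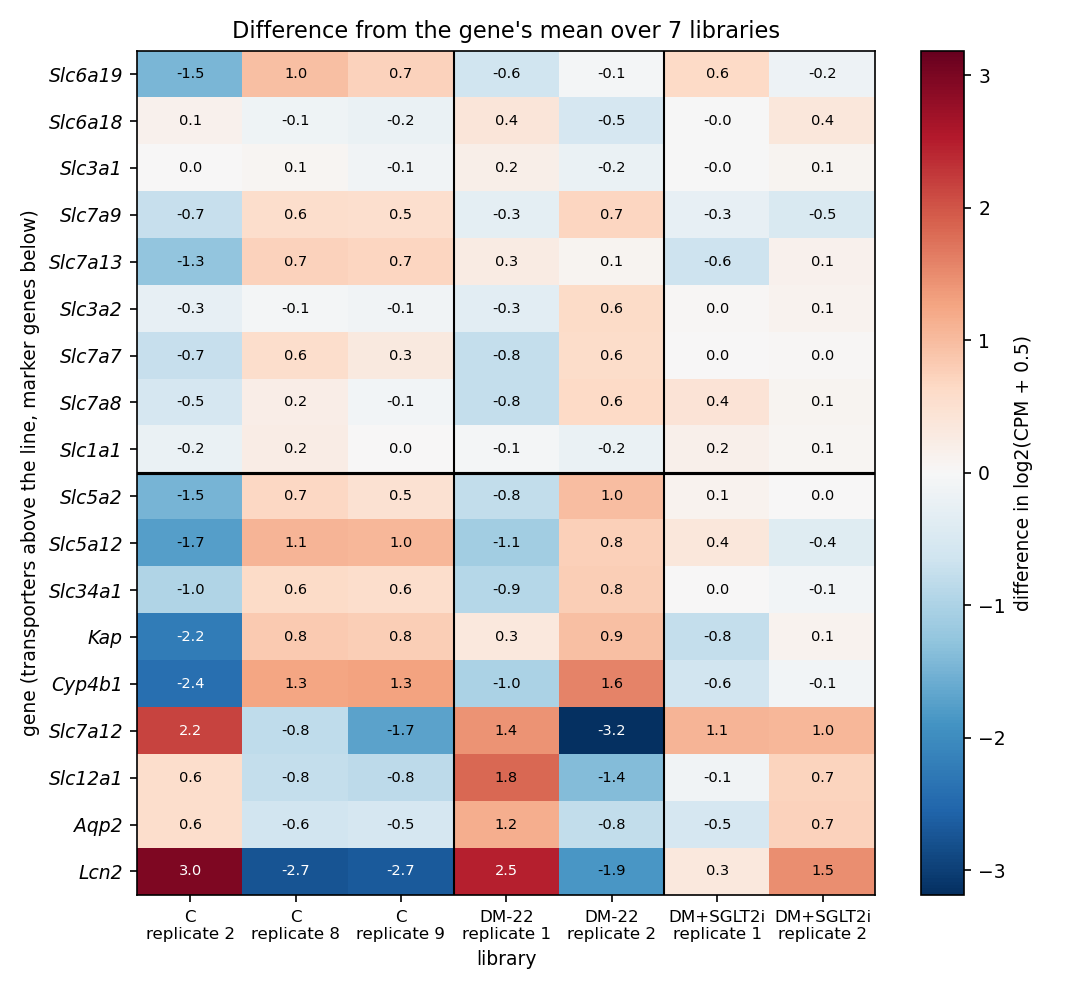
Difference of log2(CPM + 0.5) from each gene's mean over the 7 libraries (colour and printed number), for the 9 transporters above the line and for 9 marker genes below it (Slc5a2 and Slc5a12 of the S1 segment, Slc34a1 of the proximal tubule, the androgen-dependent Kap and Cyp4b1, Slc7a12, Slc12a1 of the thick ascending limb, Aqp2 of the collecting duct and Lcn2 of injured tubules), one column per library. In C replicate 2 and DM-22 replicate 1, Slc5a2, Slc7a7, Slc7a8 and Slc7a9 are all below their means and Slc12a1 and Lcn2 above, whereas Slc6a18 and Slc3a1 stay at or above theirs.

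By pattern over the 7 libraries, the tested genes most like Slc6a19 were Lmbrd2 (r = 0.997), Acin1 (0.993), Tsc1 (0.992), Abl2 (0.992) and Baz2a (0.991). Lmbrd2 was at 44.3 CPM in C replicate 2 and between 54.7 and 88.0 CPM elsewhere, a narrower range than that of Slc6a19. Most like the mean standardised pattern of Slc6a19, Slc6a18, Slc3a1 and Slc7a9 were Dennd4c (0.969), Tada2b (0.966), Pgm3 (0.964), C8a (0.954) and Zhx3 (0.953). These were the highest of 13976 coefficients, each over 7 points. The 4 averaged genes did not run together, with r from -0.83 (Slc6a18 with Slc7a9) to 0.89 (Slc6a18 with Slc3a1). A gene like their mean need therefore not follow any 1 of them. Dennd4c was at 35.2 CPM in DM-22 replicate 2, near its lowest, where Slc7a9 was at its highest, 204 CPM.

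A partner of the luminal carriers was also examined. Collectrin (Cltrn), which brings the SLC6 carriers to the brush border, was at 1276, 1516 and 1437 CPM in C, 1087 and 1728 CPM in DM-22, and 1084 and 1398 CPM in DM+SGLT2i. Its log2 fold change was -0.04 in DM-22 (SE 0.29) and -0.19 in DM+SGLT2i (SE 0.29), or -0.11 and -0.26 without C replicate 2. In C replicate 2, Cltrn also lay below C replicates 8 and 9, but by less than Slc6a19. The mean of C replicates 8 and 9 was 1.16-fold the value in C replicate 2, against 5.01-fold for Slc6a19.

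The imino acid carriers Slc6a20a and Slc6a20b, close paralogs between which reads may be split, ran from 51.5 to 98.0 and from 179 to 358 CPM, each lowest in C replicate 2 and highest in C replicate 8. Slc16a10, the basolateral aromatic amino acid carrier that works with LAT2, was between 45.2 and 79.2 CPM, with its lowest values in C replicate 2 and DM-22 replicate 1. The other light chains of Slc3a2 were scarce: Slc7a5 was at 13.1, 3.94 and 3.40 CPM in C, 18.4 and 4.37 CPM in DM-22, and 7.30 and 9.77 CPM in DM+SGLT2i, and Slc7a6 stayed between 3.26 and 10.2 CPM. Both were highest in the 2 libraries where Slc7a7 and Slc7a8 were lowest.

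Of 37 other genes of amino acid transport, 34 were tested, and 0 passed an adjusted p under 0.05 in any contrast with either set of controls. At an unadjusted p under 0.05 with all 3 controls, 1 of 34 was higher and 2 were lower in DM-22, 2 were higher and 0 lower in DM+SGLT2i, and 2 were higher and 0 lower in DM+SGLT2i against DM-22. Over all genes these shares were 1.19% and 3.28%, 0.665% and 0.415%, and 2.25% and 1.66%. Their median log2 fold changes were 0.06, 0.10 and 0.15, beside 0.004, -0.01 and 0.005 over all genes. Slc7a2, a carrier of cationic amino acids, was at 10.8, 10.2 and 9.6 CPM in C, 3.1 and 4.6 CPM in DM-22, and 10.9 and 5.0 CPM in DM+SGLT2i. Both DM-22 libraries were below all 3 controls, as for 9.29% of all genes tested, by -1.31 (SE 0.33, unadjusted p = 0.00624, limma adjusted p = 0.804), and the value without C replicate 2 was -1.27 (limma adjusted p = 0.123). Slc43a2, a basolateral carrier of large neutral amino acids, differed by 0.53 in DM-22 and 0.75 in DM+SGLT2i (limma adjusted p = 0.804 and 0.9997), and by 0.59 and 0.81 without C replicate 2. Slc38a3, the basolateral glutamine carrier SNAT3, which rises in acidosis, was at 147, 55.8 and 42.1 CPM in C, 150 and 32.7 CPM in DM-22, and 223 and 180 CPM in DM+SGLT2i. Both treated libraries lay above all 3 controls, as for 5.67% of all genes tested, by 1.51 on the log2 scale (SE 0.74, limma adjusted p = 0.9997), and by 2.04 without C replicate 2 (SE 0.66, unadjusted p = 0.0223, limma adjusted p = 0.206). They also lay above both DM-22 libraries, as for 21.4% of all genes, by 1.51 (SE 0.81, limma adjusted p = 0.881). Without C replicate 2, 4 of 34 were higher and 5 lower in DM-22 and 8 higher and 3 lower in DM+SGLT2i at an unadjusted p under 0.05, beside 10.4%, 14.8%, 8.73% and 9.14% of all genes. The smallest limma adjusted p of the list was then 0.0951 in DM-22, for Slc7a1, a carrier of cationic amino acids (1.19). In DM+SGLT2i it was 0.0973, for Slc6a15, a carrier of branched-chain amino acids (-1.65). Slc7a1 was at 19.8, 6.91 and 7.01 CPM in C and at 12.5 to 21.8 CPM in the diabetic libraries. Slc6a15 was at 6.65, 27.85 and 32.1 CPM in C and at 8.98 to 20.6 CPM in the diabetic libraries. Both differences thus depend on leaving out C replicate 2.

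The amino acid response, the programme by which the transcription factor ATF4 raises amino acid synthesis and import, was described by 14 genes, of which 13 were tested. With all 3 controls, 0 of 13 had an unadjusted p under 0.05 in DM-22, in DM+SGLT2i or between them. Asns, which encodes asparagine synthetase, was at 13.6, 4.0 and 3.5 CPM in C, 9.2 and 8.6 CPM in DM-22, and 9.7 and 10.1 CPM in DM+SGLT2i. All 4 diabetic libraries were above C replicates 8 and 9, as for 15.1% of all genes tested, and below C replicate 2. Against C replicates 8 and 9, 5 of 13 were higher and 0 lower at an unadjusted p under 0.05 in DM-22, beside 10.4% and 14.8% of all genes, and 4 were higher and 1 lower in DM+SGLT2i, beside 8.73% and 9.14%. The genes higher at this threshold in both were Asns (1.14 and 1.29), Atf5 (0.88 and 1.09), Mthfd2 (0.80 and 1.16) and Trib3 (0.73 and 1.10), whereas Atf4 itself was lower in DM+SGLT2i (by -0.998). Over the whole list, 8 log2 fold changes were positive and 5 negative in DM-22 (median 0.55, lowest -1.14). In DM+SGLT2i, 10 were positive and 3 negative (median 0.39). The medians over all genes were 0.006 and -0.02. The smallest limma adjusted p of the list was 0.0826 and 0.0636, so that 0 of 13 passed an adjusted p under 0.05. C replicate 2, left out here, was the highest of the 7 libraries for Asns, Atf5 and Mthfd2 and level with DM+SGLT2i replicate 2 for Trib3, at 2.84 CPM in both.

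Marker genes of macrophages and of injured tubules differed in the same comparisons without C replicate 2. With all 3 controls, 0 of 7 macrophage and 0 of 8 injury genes had an unadjusted p under 0.05 in either diabetic group. With C replicates 8 and 9 as controls, 6 of 7 macrophage genes were higher at an unadjusted p under 0.05 in each diabetic group. Over all genes tested this share was 10.4% in DM-22 and 8.73% in DM+SGLT2i. The median log2 fold changes of the list were 0.88 and 1.28, and C1qa passed in DM+SGLT2i (limma adjusted p = 0.0490). The macrophage sum was 556 CPM in C replicate 2 and 146 to 147 CPM in C replicates 8 and 9, beside 164 to 296 CPM in DM-22 and 279 to 328 CPM in DM+SGLT2i. Of 8 tubular injury genes, 2 were higher at an unadjusted p under 0.05 in DM-22 and 8 in DM+SGLT2i, beside the same shares of all genes. Their medians were 0.76 and 1.92, with sums of 1849 to 2118 and 2905 to 3131 CPM. Spp1 was most of these sums, at 1719 and 1172 CPM in DM-22 and 2082 and 2223 CPM in DM+SGLT2i. Krt20, 1 of these 8 genes, was at 9.90 CPM in DM+SGLT2i replicate 1 and 1.355 CPM in replicate 2. It was thus highest in the library with the highest urothelium sum. The part of urothelium in the injury values was not tested, nor that of macrophages or injured tubules in the values of the amino acid response.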

How the data were processed

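Strand-specific polyA libraries were made from renal tissue with the NEBNext Ultra II Directional kit. The submitters' processing notes name bcl2fastq, FastQC, Trim Galore, STAR, edgeR and mm10, and the read counter is not given in the sources used here, so that exons shared with a gene on the opposite strand may share reads. What the authors deposited are log2 values of CPM (reads per 1000000 reads) of 17537 genes, scaled by TMM, with a small constant added that sets a floor of -4.661 (0.0395 CPM). Values were raised to base 2 and the floor was subtracted to give CPM, and whole reads (tolerance 0.05) were recovered for 100% of values. The design had assumed CPM. All 7 columns of values were used.

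Reads on listed genes numbered 46456125 to 56541594 per library, 1 read was worth 0.0180 to 0.0231 CPM, and the members held 4167 to 55952 reads each, so that counting error was small beside the spread between libraries. The test was limma 3.58.1 (R 4.3.3), with the spread allowed to depend on expression, on log2(CPM + 0.5) of genes that reached 1 CPM in 2 or more libraries, which slightly understates the change of low genes. P-values are two-sided and adjusted by Benjamini-Hochberg over all 13976 genes, and the test was checked on simulated data. Ratios were compared by exact permutation with scipy 1.17.1 under Python 3.11.15. The 3 groups were fitted together, and each SE is that of the fit. Positions, exon lengths (union of exons) and overlaps are from GENCODE M21.

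The members, the 15 other lists and the tests were chosen with earlier results of these data known. Members were always named, besides list genes among the first 3 of their list by size of log2 fold change in a contrast, the direct partners and counterparts of the members, and the 5 genes most like Slc6a19 and like the mean of 4 luminal members. Not every gene that this rule names is reported here. Slc43a2, Slc7a1, Slc6a15, Atf4, Atf5, Mthfd2, Cyp4b1 and Slc34a1 were named outside this rule after their values were seen. Alternatives were other pseudocounts, filters and scalings, limma voom on the recovered reads, fits of only the groups compared, a replicate block, and leaving out each library. The same-numbered DM-22 and DM+SGLT2i libraries were checked for pairing.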

Additional observations from a re-analysis of the deposited data

How the results depend on the processing

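The 3 groups hold 3, 2 and 2 libraries, so that 1 library can decide a direction. The numbers of genes at an adjusted p under 0.05 were 0 in each contrast and stayed at 0 under the other pseudocounts, filters and scalings, under voom on the recovered reads and with only the groups compared fitted. Leaving out each library in turn gave 0 to 2 genes in DM-22 against C, 0 to 17 in DM+SGLT2i against C and 0 to 28 in all diabetic libraries against C, in each case highest without C replicate 2, and 0 in DM+SGLT2i against DM-22. The numbers of members at an unadjusted p under 0.05 then ran from 0 to 1, 0 to 2, 0 to 2 and 0 to 2 (DM+SGLT2i against DM-22, with 2 without DM-22 replicate 1). 2 combinations were chosen after seeing the data. Without C replicate 2 and with voom, 0, 4 and 3 genes and 1, 2 and 2 members passed these thresholds in DM-22, DM+SGLT2i and all diabetic libraries against C. Without C replicate 2 and DM+SGLT2i replicate 1, the same comparisons gave 0 genes each and 2, 2 and 2 members.

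Leaving out each library moved the members' log2 fold changes across 0 in many cases. In DM-22 against C they ran from -1.19 to 0.022 for Slc6a19, -0.48 to 0.45 for Slc6a18, -0.21 to 0.20 for Slc3a1, -0.45 to 0.55 for Slc7a9, -0.81 to 0.54 for Slc7a7, -0.61 to 0.77 for Slc7a8, -0.20 to 0.76 for Slc3a2 and -0.54 to 0.46 for Slc7a13. In DM+SGLT2i against C they ran from -0.61 to 0.60 for Slc6a19, -0.0061 to 0.088 for Slc3a1, -0.42 to 0.24 for Slc7a7, -0.0016 to 0.22 for Slc1a1 and -0.96 to 0.090 for Slc7a13. In DM+SGLT2i against DM-22 they ran from -0.21 to 0.72 for Slc6a18, -0.16 to 0.25 for Slc3a1, -0.56 to 0.79 for Slc7a7, -0.37 to 1.01 for Slc7a8 and -0.54 to 0.42 for Slc3a2. In all diabetic libraries against C they ran from -0.90 to 0.31 for Slc6a19 and -0.75 to 0.25 for Slc7a13. Scaling to the total of the listed genes, which shifts the median of all genes in DM+SGLT2i against DM-22 to 0.11, turned Slc7a9 (-0.037) and Slc7a8 (-0.011) in DM-22 against C and Slc3a2 (0.046) in DM+SGLT2i against DM-22. With voom and without C replicate 2, Slc6a18 (0.068), Slc7a9 (-0.36), Slc7a8 (-0.090) and Slc7a13 (-0.54) in DM-22 and Slc6a19 (-0.61) and Slc1a1 (-0.00066) in DM+SGLT2i turned against C. Without C replicate 2 and DM+SGLT2i replicate 1, Slc6a18 (0.088), Slc3a1 (0.0047), Slc7a9 (-0.38), Slc7a8 (-0.12) and Slc7a13 (-0.54) in DM-22 and Slc6a19 (-1.01) and Slc1a1 (-0.051) in DM+SGLT2i did, the difference of Slc3a1 in DM+SGLT2i was 0.094, and that of Slc6a19 in all diabetic libraries was -1.10. The cause was not tested.

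The replicate numbers 1 and 2 are shared by DM-22 and DM+SGLT2i, and C replicate 2 also carries the number 2. Same-numbered DM-22 and DM+SGLT2i libraries did not deviate together (r = -0.04 over genes, 2 pairs), and the numbers were not taken as pairs. With 2 libraries per group this coefficient cannot decide whether the numbers mark pairs. With a replicate block, 0 genes passed an adjusted p under 0.05 in DM+SGLT2i against DM-22, 696 against 547 had an unadjusted p under 0.05, and 0 of 9 members did.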
